A study of Mus musculus with 7 samples.

Results

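The Hox cluster genes are the protein-coding genes of GENCODE M21, on mouse build mm10, whose symbol is Hoxa, Hoxb, Hoxc or Hoxd followed by a number only. There were 39 of them among 21938 protein-coding genes, with 11 in Hoxa, 10 in Hoxb, 9 in Hoxc and 9 in Hoxd. They were examined in 7 libraries from mouse muscle stem cells (MuSCs), which were sorted from C57BL/6 background mice by flow cytometry. ATAC-seq, which reads open chromatin by the insertions of a transposase, gave 2 Control and 2 TRF2KO libraries from uninjured hind limb muscle, labelled 0 h. TRF2, encoded by Terf2, is a telomere-binding protein, and the knockout combined a floxed allele of it with the tamoxifen-inducible Pax7 CreERT2 driver, so the deletion was confined by design to Pax7-expressing cells. The genotype field reads Wildtype for all 7 libraries, and the titles were used to tell TRF2KO from Control. By the methods, Cre was induced with repeated tamoxifen injections begun in young adult mice. The alleles of the ATAC Control mice and the age at which the cells of these libraries were sorted are not given in the sources used here. CUT&Tag, which maps the chromatin an antibody holds, gave 2 TRF2 libraries and 1 IgG library from tibialis anterior MuSCs labelled Wildtype, 3 days after injury with the toxin notexin. The methods name the CUT&Tag mice as Pax7 Cre with a TdTomato reporter, add the gastrocnemius, and give a shorter time after injury, so the time and muscle of these libraries are uncertain. Whether a library holds 1 mouse or a pool is not stated.

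Hox genes encode homeodomain transcription factors that set the position of cells along the head-to-tail axis and along the limbs. Each cluster is ordered: paralog group 1 lies at the 3′ end and acts toward the head, while the highest groups lie at the 5′ end and act toward the tail and, in the limb, toward its far end. Adult limb muscle and its stem cells are known to keep a Hox pattern laid down in the embryo, and the proteins bind DNA together with partners of the TALE homeodomain class.

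The clusters lay at chr6:52155590-52260880 (Hoxa, minus strand, 105.3 kb), chr11:96194316-96368256 (Hoxb, plus strand, 173.9 kb), chr15:102921103-103036852 (Hoxc, plus strand, 115.8 kb) and chr2:74668310-74765142 (Hoxd, plus strand, 96.8 kb). A gene was counted as having a peak when a MACS peak lay within 1 kb of its annotated start. The value given is the fold of the strongest such peak, which is the authors' enrichment at the summit over local background within that library, and its percentile among all peaks of the same list. That peak could lie at different sites in different libraries, as at Hoxa2, Hoxa9, Hoxa13, Hoxb7, Hoxd1 and Hoxd12. Values of the 4 ATAC libraries are given throughout in the order Control replicates 1 and 2, then TRF2KO replicates 1 and 2. The libraries are bulk preparations, so a site open in more cells and a site more open in each cell cannot be told apart. A missing peak means that the site did not pass the peak caller's threshold at that depth, not that the chromatin was closed.

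The ATAC lists held between 84102 and 100521 peaks, and Control replicate 2 was the deepest library, with a median background pileup of 4.56 fragments against 3.35 to 3.41 in the other three. The TRF2 lists held 12290 and 15479 peaks and IgG 656. All 10 listed MuSC markers, Pax7 and Myf5 among them, had a peak at the start in all 4 ATAC libraries, and none of the 5 haematopoietic markers had a peak in any. Of the remaining marker lists, 3 of 4 endothelial, 1 of 4 fibro-adipogenic, 1 of 3 Schwann cell and 2 of 4 myofibre genes had a peak in all 4 libraries. The part of other cells in the Hox peaks was not tested. The peak at the start of the targeted gene Terf2 had folds of 54.3, 48.4, 21.5 and 18.6, a log2 difference of -1.46 (SE 0.08, limma, adjusted p = 0.0133).

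Open chromatin divided the 4 clusters. An ATAC peak lay at the start in all 4 libraries for 27 of the 39 Hox genes, beside 60.6% of all coding genes, and the 27 were 10 of 11 in Hoxa, 2 of 10 in Hoxb, 7 of 9 in Hoxc and 8 of 9 in Hoxd. The SEACR and GoPeaks callers gave 10 and 10 of 11 in Hoxa, 1 and 2 of 10 in Hoxb, 6 and 7 of 9 in Hoxc, and 2 and 6 of 9 in Hoxd, so the Hoxd count rests on the caller. By MACS, another 7 genes had a peak in 1 to 3 libraries. No library had a peak for Hoxb2, Hoxb3, Hoxb8, Hoxb13 and Hoxc4, 5 of 39 genes, beside 33.4% of all coding genes. Hoxb was therefore the cluster with the fewest open starts in these lists, and Hoxb13, the most 5′ gene of its cluster, had no peak anywhere in its coding span with 1 kb on either side.

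Where Hox starts were open, the median level differed between clusters, with overlapping ranges. Over the genes with a peak in all 4 libraries, the median of the mean percentile was 86.6 in Hoxc (57.1 to 95.8), 80.8 in Hoxa (45.3 to 92.0), 55.2 in Hoxd (11.7 to 69.4) and 33.4 in Hoxb (24.7 to 42.1). The 27 genes together had a median of 67.2, below the 88.8 of all coding genes with a peak in all 4. Of these 27, 12 lay above percentile 75, 7 in Hoxa and 5 in Hoxc, while 76.4% of the coding genes did. The percentile of a Hox start differed between replicates by a median of 2.84 points in Control and 1.92 points in TRF2KO. Gene by gene, the range of Hoxa overlapped those of Hoxc and Hoxd, and the 2 Hoxb genes lay within the range of Hoxd. Some weak starts moved more, up to 18.8 points for Hoxb6 between the Control libraries and 27.2 points for Hoxb9 between the TRF2KO libraries.

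**Figure D1:**
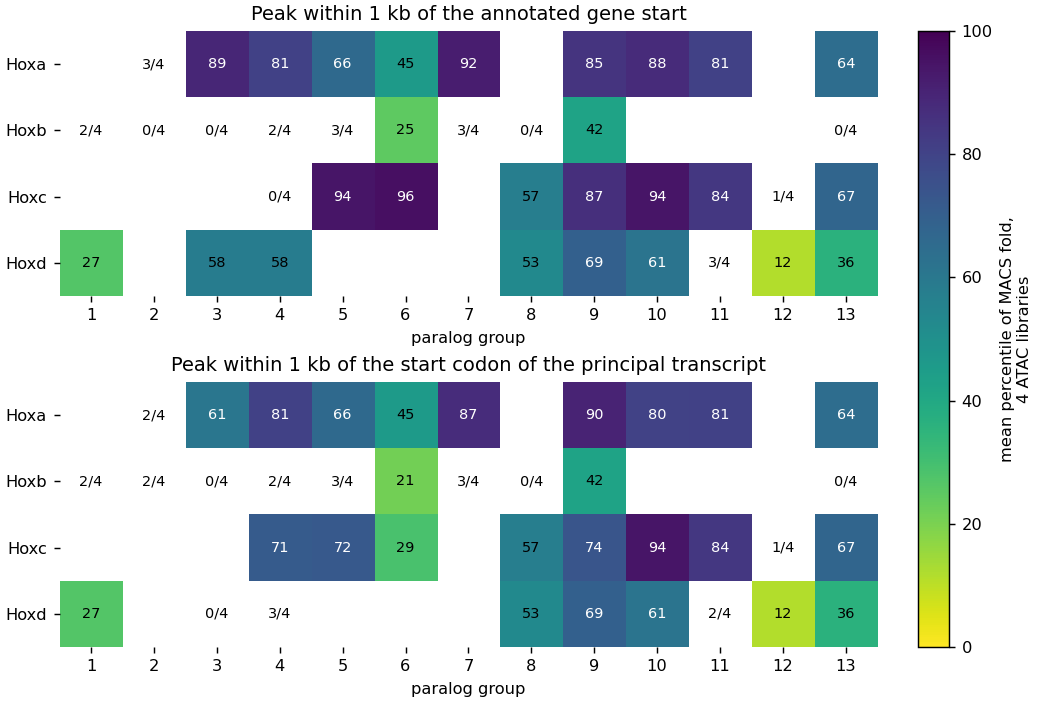
Mean percentile of the MACS fold over the 4 ATAC libraries for each Hox gene with a peak in all 4, by cluster (rows) and paralog group (columns), at the annotated start (top) and at the start codon (bottom); cells without colour give the number of libraries with a peak, and blank positions have no gene or 1 that is not reported here. Hoxa and Hoxc hold the dark cells, up to 96 in Hoxc6, and Hoxb has 2 coloured cells.

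The annotated start is a choice that matters for these genes, because several have upstream transcripts that begin far from the coding exons. The distance from annotated start to start codon was 46639 bp for Hoxc5, 40687 bp for Hoxa3, 32085 bp for Hoxd3, 20923 bp for Hoxb3, 15789 bp for Hoxc4 and 11349 bp for Hoxc6. Measured at the start codon of the principal transcript instead, 26 of the 39 genes had a peak in all 4 libraries, beside 47.8% of all coding genes, with 10 in Hoxa, 2 in Hoxb, 8 in Hoxc and 6 in Hoxd. Hoxc4, without a peak at its annotated start, had folds of 18.2, 16.4, 16.5 and 16.1 at its start codon. Hoxc6 went the other way, from folds of 80.1, 76.7, 94.2 and 97.4 at its start to 6.90, 3.78, 4.35 and 4.54 at its start codon. Hoxd3 had no peak at its start codon in any library. The annotated starts of Hoxc5 and Hoxc10 lay under the same peak, and Hoxd3 and Hoxd4 share a start region, so the values of each pair are 1 measurement.

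By role along the axis, the posterior genes (groups 9 to 13) were open at the start in all 4 libraries in 13 of 16 cases, the central genes (groups 4 to 8) in 10 of 15 and the anterior genes (groups 1 to 3) in 4 of 8. Without Hoxb these counts were 12 of 14, 9 of 10 and 4 of 5, and no order along the axis remained. All 4 members of group 9 and all 3 members each of groups 6 and 10 had a peak in all 4 libraries, and neither member of group 2 did. Coverage of the coding spans, with 1 kb on either side, rose from anterior to posterior within Hoxa and from central to posterior within Hoxc. In Hoxa the median share of a span under peaks, averaged over the 4 libraries, was 20.7% for anterior, 39.0% for central and 66.1% for posterior genes. In Hoxc it was 42.2% for central and 67.3% for posterior genes. The percentiles at the starts did not follow that order. Their medians were 84.2, 73.3 and 82.9 for anterior, central and posterior genes in Hoxa, and 94.3 and 85.2 for central and posterior genes in Hoxc. The most covered spans were Hoxc9 (88.8%), Hoxa9 (82.8%), Hoxc11 (82.7%) and Hoxa10 (80.9%), genes of the limb-patterning groups. Hoxb and Hoxd did not follow the order of span coverage, with 12.2% and 21.0% for their posterior genes, and neither did the ends of Hoxc, with 3.25% for Hoxc12.

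The anterior genes of Hoxa act in the hindbrain and neck of the embryo. Hoxa2 had a weak peak in 3 libraries, of 4.14, 3.20 and 3.18, with none in Control replicate 2. Hoxa3, measured at its distant upstream start, had folds of 52.7, 44.6, 48.7 and 45.4. Its neighbour Hoxa4 followed with 26.9, 22.9, 35.5 and 26.6. The lowest TRF2KO value of Hoxa3 lay just above the lower Control value, and that of Hoxa4 lay just below the higher Control value, so on uncentred folds the genotypes overlapped at both.

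Of the central Hoxa genes, which pattern the trunk and the upper limb, Hoxa7 was the strongest with folds of 65.6, 53.8, 63.6 and 57.9. Hoxa5 had folds of 14.0, 15.3, 13.3 and 11.6. Hoxa6 was the weakest start of the cluster with a peak in every library, at 8.51, 7.20, 7.78 and 5.22. The posterior Hoxa genes are those the limb uses along its length, from Hoxa9 in the upper segment to Hoxa13 in the hand and foot. Hoxa10 stood at 48.1, 39.6, 45.1 and 39.5 and Hoxa11 at 30.1, 25.2, 26.8 and 27.9. Hoxa13, the most 5′ gene, was lower at 14.5, 10.6, 11.7 and 14.3. None of these 3 separated the genotypes by its folds.

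Hoxa9 shows how a peak's edges can set its value. Its start had folds of 31.8, 50.9, 55.1 and 21.8, high in 1 library of each genotype. In Control replicate 2 and TRF2KO replicate 1 the strongest peak there was 7332 and 7253 bp wide and ran on into the peak at the start codon. In the other libraries it was a different peak, 3690 and 3535 bp wide, upstream of the start at chr6:52231089. That peak began at 52231923 and 52231961 and is the one at the Hoxa10 start codon. At the start codon the folds were even, at 52.0, 50.9, 55.1 and 49.3. The high values at the Hoxa9 start are those of its start-codon peak and the low values those of the Hoxa10 start-codon peak. The values at this start therefore compare different sites between libraries.

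The Hoxc cluster, which has no members of groups 1 to 3 and acts in the trunk and hindlimb, held the strongest Hox peaks of the data. Hoxc6, at its upstream start, had folds of 80.1, 76.7, 94.2 and 97.4, resting on 347, 425, 411 and 428 summit fragments, and both TRF2KO values lay above both Control values. Hoxc10, a hindlimb-enriched gene, and Hoxc5 shared a peak with folds of 87.0, 70.7, 75 and 65.4 (377, 392, 327 and 287 fragments). That peak was 6006, 8850, 5906 and 2441 bp wide, narrowest in TRF2KO replicate 2. The other posterior genes were Hoxc9 with folds of 42.3, 35.3, 41.4 and 39.7, Hoxc11 with 37.5, 31.5, 35.9 and 27.7, and Hoxc13, known for its role in hair and nail, with 16.6, 14.4, 14.0 and 12.3. Of these, Hoxc13 had both TRF2KO folds below both Control folds, and the others overlapped. Hoxc8 was weaker and even, at 9.90, 9.36, 10.7 and 9.53. Between Hoxc11 and Hoxc13, Hoxc12 had 1 peak, of 3.06 in Control replicate 2, the deepest library.

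The sequence of an unlisted posterior start is shown for Hoxb13, which had no peak in any library: the 250 bases upstream, from mm10 on the plus strand at chr11:96194066-96194315, with each CpG in capitals. CpG-rich starts are commonly open in many cell types.
Hoxb13 upstream: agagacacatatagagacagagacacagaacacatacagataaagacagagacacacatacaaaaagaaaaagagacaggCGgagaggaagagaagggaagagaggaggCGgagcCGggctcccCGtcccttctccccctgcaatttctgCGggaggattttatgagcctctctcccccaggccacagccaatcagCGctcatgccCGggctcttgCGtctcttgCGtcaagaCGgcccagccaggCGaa
This stretch held 11 CpG, 0.578 of the number its C and G content gives by chance order.

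Over all members, the window from 250 bases before to 50 bases after the start had a median CpG ratio of 0.745 in Hox genes, beside 0.524 in all coding genes and 0.741 in coding genes with a peak in all 4 libraries. The 5 Hox starts without a peak had a median ratio of 0.697, above the 0.165 of the 7323 coding starts without one. These 5 ranged widely, from 0.255 at Hoxb2 and 0.338 at Hoxc4 to 0.970 at Hoxb8. Their median GC content was 42.3%, against 58.3% in the 27 Hox starts with a peak in all 4. The median CpG ratio of the 27 was 0.787, so by medians Hox starts with and without a peak lay closer in this ratio than coding starts did.

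Hoxd, whose 5′ genes act in the limb and its digits, had MACS peaks in all 4 libraries at 8 of 9 starts, at modest levels, while SEACR gave 2 of 9 and GoPeaks 6 of 9. Hoxd9 had folds of 16.6, 15.5, 18.5 and 12.5 and Hoxd10 had 11.5, 10.8, 11.2 and 12.3. Hoxd8 had 10.6, 8.10, 8.46 and 7.49, and the shared start of Hoxd3 and Hoxd4 had 11.5, 9.54, 9.38 and 10.2. The genes at both ends were lower. Hoxd1 had 5.06, 3.06, 5.95 and 4.99 and Hoxd13 had 5.75, 5.22, 6.18 and 5.22. The 5.06 of Hoxd1 is that of a separate peak at chr2:74762145-74762342. In the region of the other libraries, chr2:74762625-74763468, Control replicate 1 had 4.37. Hoxd12, at 2.99, 3.24, 3.66 and 3.40, was the weakest Hox start with a peak in all 4 libraries and rested on 12 to 17 summit fragments. Hoxd11 had a peak in 3 libraries, with folds of 3.68, 3.06 and 2.72 and none in TRF2KO replicate 1.

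In Hoxb, 2 genes had a peak in all 4 libraries. Hoxb9 had folds of 6.90, 8.28, 8.23 and 4.09 (29, 45, 35 and 17 fragments) and Hoxb6 had 3.22, 3.78, 4.80 and 6.13 (13, 20, 20 and 26 fragments). Hoxb5 was listed in 3 libraries, with folds of 5.29, 7.38 and 7.78, and Hoxb7 in 3, with 3.68, 4.12 and 3.86. Hoxb1, the hindbrain gene at the 3′ end, and Hoxb4 each had a peak in 1 library of each genotype. The highest fold at a Hoxb start in any library was thus 8.28, at Hoxb9. The strongest Hoxb region was not at a start: chr11:96278544-96279256, 2649 bp from the Hoxb8 start and in no annotated gene, had folds of 19.1, 14.9, 16.9 and 15.7.

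**Figure D2:**
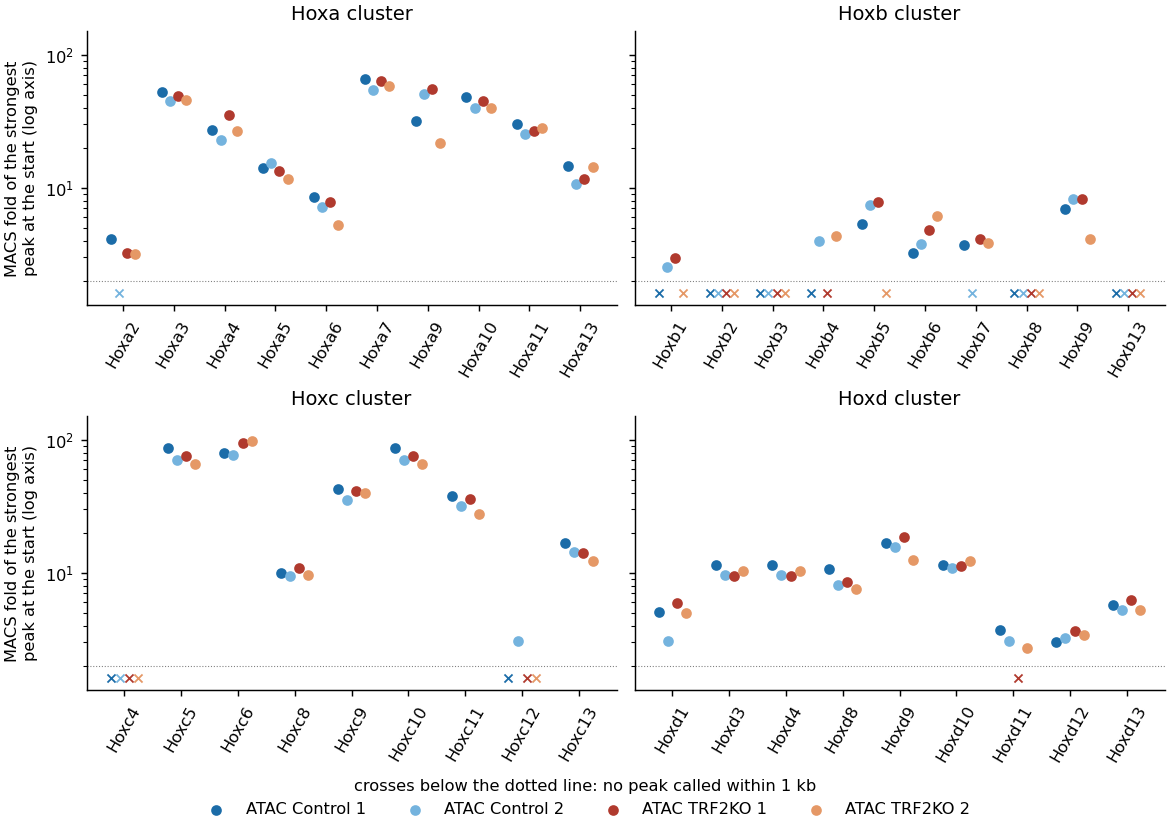
MACS fold of the strongest ATAC peak within 1 kb of each Hox start (log axis) in the 4 libraries, by cluster from paralog group 1 to 13; crosses under the dotted line mark libraries with no peak. The plot leaves out 1 Hoxa gene. Points of the 4 libraries lie close together at starts such as Hoxc8 (9.36 to 10.7), while Hoxa9 and Hoxb9 spread widely, and Hoxb holds most of the crosses.

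Open regions away from the starts were as strong as many starts. Farther than 1 kb from any Hox start, the strongest region of Hoxc lay at chr15:102942792-102943959, between Hoxc12 and Hoxc11 and outside annotated genes, with folds of 49.7, 43.6, 45.1 and 42.0. The next, chr15:102985636-102988255, lay in an intron of Hoxc5, with 41.0, 29.3, 39.6 and 29.7. In Hoxa the strongest was chr6:52215826-52218192, over coding and untranslated exon sequence of Hoxa7, with 43.7, 37.3, 48.0 and 38.6. It was followed by chr6:52168435-52169195 over untranslated sequence of Hoxa3, with 19.8, 15.3, 14.2 and 14.1. In Hoxd the strongest lay at chr2:74715694-74716495, in introns of Hoxd3 and Hoxd4 and over an exon of the antisense RNA gene Hoxd3os1, with 25.5, 21.8, 23.1 and 24.1. That was above every Hoxd start. The remaining named regions, chr11:96311265-96312282 in Hoxb and chr2:74740327-74741221 in an intron of Hoxd3, had folds of 11.3 to 13.4 and 8.92 to 12.2. Each of these regions had a peak in all 4 libraries.

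The clusters also carry noncoding genes. Of those annotated inside a cluster, 14 of 18 in Hoxa, 6 of 7 in Hoxc, 3 of 9 in Hoxd and 1 of 9 in Hoxb had a peak in all 4 libraries within 1 kb of the start, or over the hairpin for a miRNA gene. This was 55.8% of the 43, beside 14.5% of the 33475 noncoding genes of the annotation. Many lie under a shared peak, since the 24 with a peak in all 4 libraries held 15 distinct sets of folds. Hotair, a long noncoding RNA gene between Hoxc12 and Hoxc11, had folds of 23.5, 19.3, 21.0 and 14.8. Hoxa11os, antisense to Hoxa11, lay under the peak of that gene and repeats its values. Of 7 miRNA genes annotated in the clusters, 6 had a mature sequence in RefSeq (GRCm38.p6). The main products of the miR-196 and miR-10 families are shown, because shared seeds tie miRNAs of different clusters together. The seed, bases 2 to 8, is in capitals. The miR-196 family is known to target Hox transcripts.
miR-196a-5p: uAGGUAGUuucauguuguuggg
miR-196b-5p: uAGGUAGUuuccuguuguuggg
miR-10a-5p: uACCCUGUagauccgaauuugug
miR-10b-5p: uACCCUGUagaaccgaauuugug
Each family has members in several clusters with the same seed, and their hairpins differed in ATAC. Mir196b in Hoxa had folds of 17.0, 50.9, 55.1 and 13.8, in part the Hoxa9 peak. Mir196a-2 in Hoxc had 6.90 and 9 in the Control libraries and no peak over the hairpin in either TRF2KO library. Its hairpin lay within the merged region chr15:102970250-102980392, which had peaks in all 4 libraries, so it is not a region of 1 genotype. Mir196a-1 in Hoxb, Mir10a in Hoxb and Mir10b in Hoxd had no peak over the hairpin in any library. Mir615, inside Hoxc, had 19.3, 15.5, 18.5 and 17.0.

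The question of the genotype comparison was whether loss of TRF2 changed the openness of these clusters, and its first measure was the share of cluster bases under MACS peaks. Hoxc was covered for 47.6% and 49.7% of its bases in Control and for 43.4% and 36.3% in TRF2KO, so both TRF2KO libraries lay below both Control libraries. The means were 48.7% ± 1.46 and 39.9% ± 5.04 (SD, n = 2 each), a difference of -8.80 points or -18.1% of the Control mean. Hoxa was covered for 36.7% and 38.1% in Control and 36.0% and 34.0% in TRF2KO, again without overlap, a difference of -2.40 points. Hoxb, at 4.58% and 7.15% against 5.82% and 5.57%, and Hoxd, at 10.4% and 13.7% against 12.0% and 12.2%, overlapped, with differences of -0.175 and 0.0253 points.

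Over the 4 clusters together 22.7% and 25.1% of the bases were covered in Control, against 22.3% and 20.2% in TRF2KO, a difference of -2.64 points or -11.0%. The exact two-sided permutation test of the 2 libraries against 2 gave p = 0.333 for the 4 clusters together, for Hoxa and for Hoxc (adjusted p = 0.556), and p = 1 for Hoxb and Hoxd. With 6 assignments of the labels 0.333 is the smallest p possible, so this design cannot reach 0.05. The genome as a whole moved the same way, from 2.58% and 2.82% of its bases to 2.4% and 2.28%, or -13.5%. TRF2KO replicate 2 carried much of the Hoxc difference, since within replicate number 1 it was -4.20 points and within number 2 it was -13.4 points. For the 4 clusters together the difference was -1.47 points without Control replicate 2 and -1.57 points without TRF2KO replicate 2. Hoxc peaks were not fewer in TRF2KO, with 31 and 38 separate regions in Control and 35 and 41 in TRF2KO. The widest region measured 6006 and 8850 bp in the Control libraries, 5906 and 3844 bp in TRF2KO. The part of depth in these widths was not tested. The median background pileups were 3.35 and 4.56 fragments in Control and 3.37 and 3.41 in TRF2KO.

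**Figure D3:**
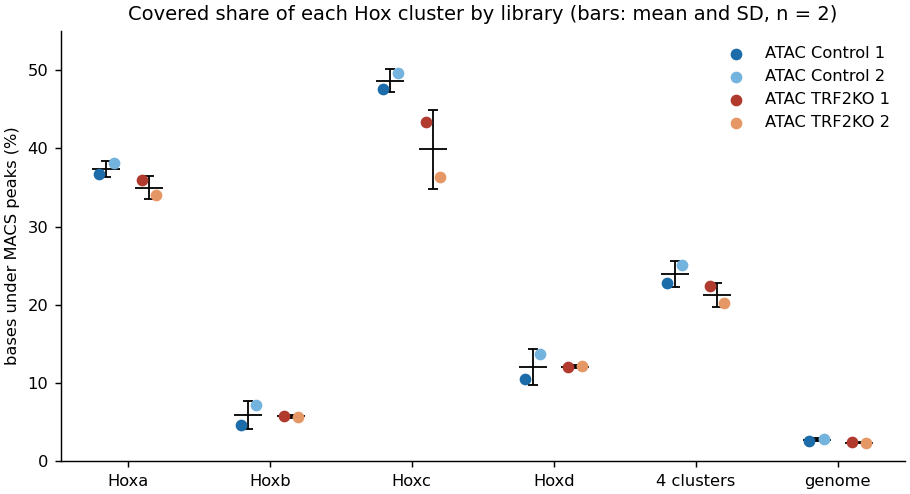
Percent of the bases of each Hox cluster, of the 4 together and of the genome under MACS ATAC peaks, 1 point per library, with the mean and SD of 2 libraries per genotype. The gap is widest at Hoxc, where the Control points sit at 47.6 and 49.7 and the TRF2KO points at 43.4 and 36.3, and the points interleave at Hoxb and Hoxd.

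**Figure D4:**
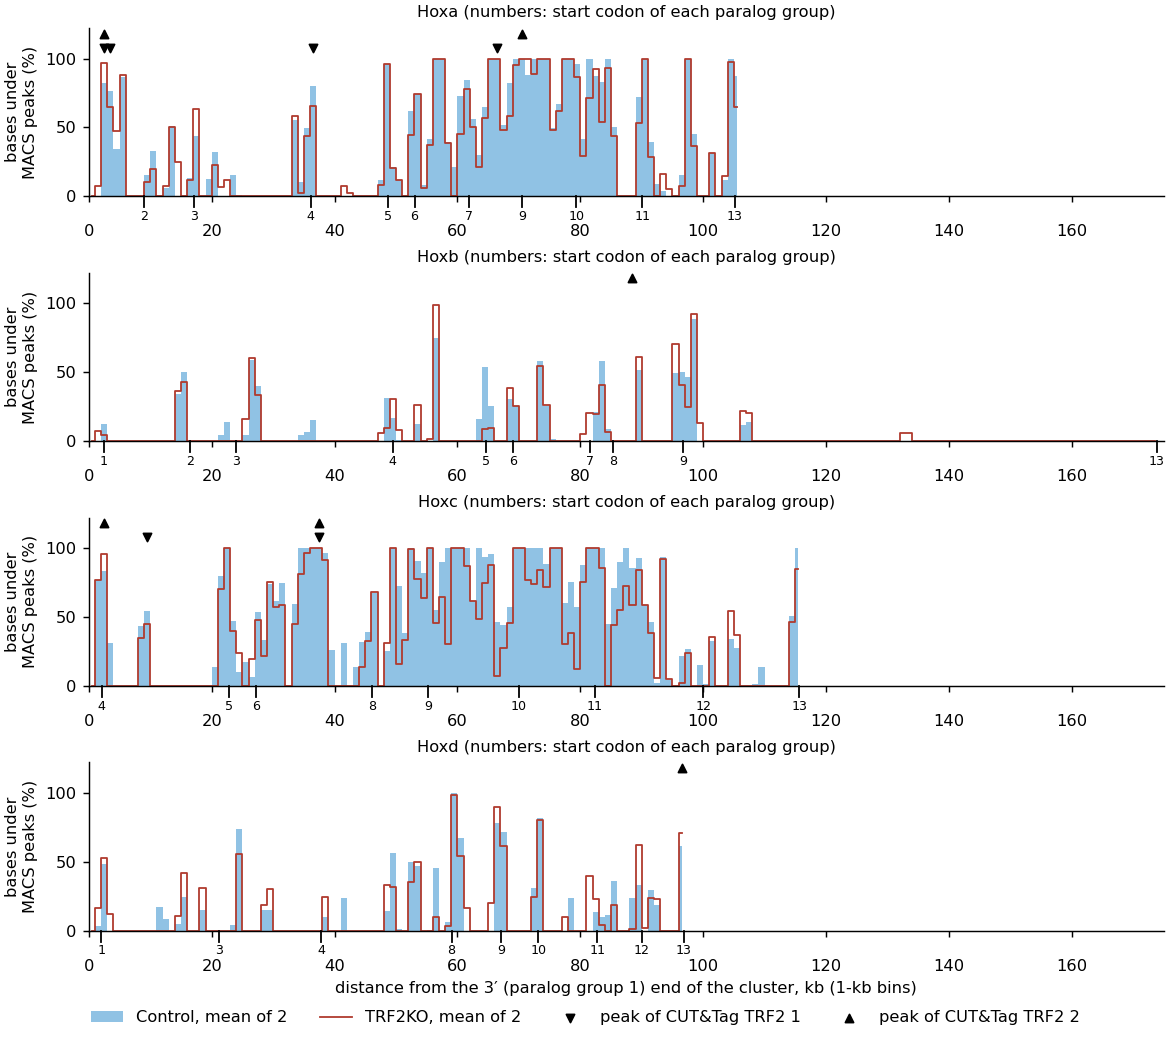
Percent of bases under MACS ATAC peaks in 1-kb bins along each cluster, from its 3′ end at the left, as the mean of 2 Control (filled) and 2 TRF2KO libraries (line); numbers mark the start codon of each paralog group and triangles the bins with a TRF2 CUT&Tag peak. Cover is densest around groups 9 to 11 of Hoxa and Hoxc and sparse in Hoxb and Hoxd, and overlapping peaks of both TRF2 libraries lie between groups 6 and 8 of Hoxc.

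Consensus lists, which the authors combined from several peak callers for each genotype, gave far wider regions. They covered 92.9% of Hoxa, 34.8% of Hoxb, 96.4% of Hoxc and 46.1% of Hoxd in Control and 76.2%, 26.4%, 84.3% and 34.0% in TRF2KO. Their order, with Hoxc first and Hoxb last, was that of the single libraries. These lists carry no replicate and allow no error, and their widest Hoxc region was 105140 bp in Control and 83570 bp in TRF2KO.

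Counting regions by presence, the peaks of the 4 libraries merged into 124 regions inside the clusters. Of these, 62 had a peak in all 4 libraries, or 50%, beside 50.2% genome-wide. A peak in both Control and neither TRF2KO library was found in 2 regions (4.48% genome-wide), and the reverse in 2 regions (1.12% genome-wide). The Control regions were chr15:102994912-102995270 in an intron of Hoxc5, with folds of 7.13 and 3.96, and chr2:74686412-74686666, over an exon of Hoxd11 outside its coding sequence, with 4.83 and 4.14. The TRF2KO regions were chr6:52170157-52170595 over coding sequence of Hoxa3, with 3.66 and 3.40, and chr2:74683480-74683943 over coding sequence of Hoxd11, with 3.43 and 3.86. All 4 were weak peaks, and no Hox start was listed in one genotype and absent from the other in both replicates.

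The folds at the starts were compared with limma over the 13286 coding genes that had a peak in all 4 libraries, after each library was centred on its median. That filter kept 27 of the 39 Hox genes, so the 12 without a peak in all 4 libraries are not in this comparison. None of the 27 passed an adjusted p of 0.05. An unadjusted p under 0.05 was found at 7 of them, beside 1653 of the 13286 genes tested. The 7 count the shared peak of Hoxc5 and Hoxc10 once for each gene. Among all coding genes 0.173% were called lower and 0.0376% higher in TRF2KO, 28 genes with Terf2 among them, a rate at which 27 genes would hold none. A p that misses the threshold does not show that the starts were alike, and the number of coding genes called was itself 0 without Control replicate 1, 9 without Control replicate 2, 166 without TRF2KO replicate 1 and 114 without TRF2KO replicate 2.

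By size, 22 of the 27 Hox starts had a lower and 5 a higher centred fold in TRF2KO. Among all genes tested, the share that was lower differed with the mean ATAC percentile of the start. It was 62.6%, 65.6%, 63.0% and 41.1% in the bands from 0 to 25, 25 to 50, 50 to 75 and 75 to 100. In those bands 0 of 2, 3 of 4, 9 of 9 and 10 of 12 Hox starts were lower. The median log2 difference was -0.14, beside 0.01 over all genes tested, and it was -0.13 in Hoxa, 0.03 in Hoxb, -0.22 in Hoxc and -0.11 in Hoxd. Between replicates of the same genotype, Hox starts differed by a median of 0.11 in Control and 0.12 in TRF2KO on the same log2 scale, as absolute differences of single genes. The values of both TRF2KO libraries lay below both Control libraries at 12 Hox starts, where 21.0% of all genes did so, and above at 4, where 24.8% did so. These counts and medians carry no test, and starts that share a peak are counted separately. The size of the Hox median and the count of lower starts also rest on the centring, though the median stayed negative. Without it the Hox median was -0.04 and 15 of 27 were lower, while the median of all genes was 0.11, and after quantile normalization 18 of 27 were lower with a median of -0.08.

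The members with the largest differences were those with weak peaks. Hoxb6 was higher in TRF2KO by a log2 difference of 0.54 (SE 0.20) and Hoxb9 lower by -0.48 (SE 0.31), on the summit fragments given above. Hoxc13 had the smallest adjusted p of the Hox genes, 0.208 in limma, with a difference of -0.34 (SE 0.08). Hoxa6, at -0.40 (SE 0.16), Hoxa5, at -0.34 (SE 0.12), Hoxd8, at -0.32 (SE 0.10), and the shared peak of Hoxc5 and Hoxc10, at -0.26 (SE 0.09), had adjusted p-values of 0.319 to 0.399 in limma. Hoxc6 differed by 0.19 (SE 0.10), Hoxa4 by 0.21 (SE 0.12) and Hoxd1 by 0.37 (SE 0.19), all toward TRF2KO. At Hoxd1, Control replicate 1 was measured at another peak than the other libraries. Within Hoxc the strongest peaks thus stood on both sides of 0. In percentile bands from 0 to 25, 25 to 50, 50 to 75 and 75 to 100 the Hox medians were 0.31, -0.22, -0.20 and -0.13. These bands held 2, 4, 9 and 12 Hox starts. Over all genes the medians were -0.08, -0.12, -0.07 and 0.03. The part of openness in the sign was not tested.

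TRF2 regions were few at Hox starts. None of the 39 starts had a TRF2 region of both libraries within 1 kb, while 22.0% of all coding starts did. Such a region needs overlapping peaks, so peaks of both libraries lying side by side at a start do not count. A peak of either library lay at 4 Hox starts, Hoxa4, Hoxa7 and Hoxd13 among them, beside 36.7% of coding starts. Inside the clusters the lists held 5 peaks in TRF2 replicate 1, 6 in replicate 2 and 0 in IgG, out of 12290, 15479 and 656 peaks genome-wide. These were 0.0407% and 0.0388% of the TRF2 peaks, while the clusters make up 0.0180% of the genome's length, so by length TRF2 peaks of single libraries were not fewer there than elsewhere. Regions of both libraries numbered 1 of 7414, or 0.0135%. TRF2 regions at coding starts followed openness, so the share is best read by band: with rising ATAC percentile, 1.05%, 3.07%, 5.93% and 46.0% of coding starts had a TRF2 region of both libraries. The Hox genes in those bands numbered 2, 4, 9 and 12, with 0 in each. In the highest band a peak of either library lay at 71.5% of coding starts and at 3 of the 12 Hox starts. The CUT&Tag and ATAC libraries came from injured and uninjured muscle, and CUT&Tag peaks inside the clusters rested on 5 to 14 summit fragments, so TRF2 below the level of a called peak was not detectable at this depth.

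**Figure D5:**
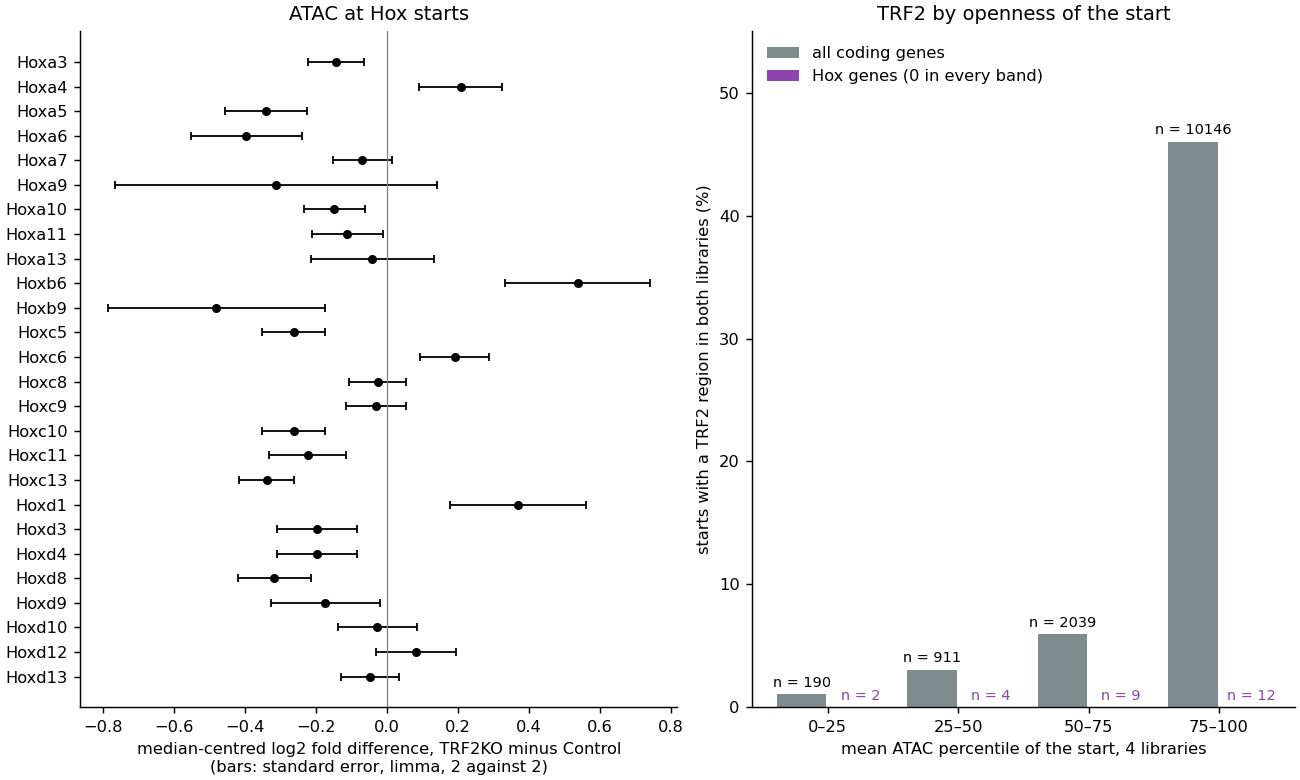
Left, the median-centred log2 fold difference (TRF2KO minus Control) of Hox starts with a peak in all 4 ATAC libraries, 1 of them not shown, with limma standard errors from 2 libraries against 2; most points lie left of 0 and none passed the adjusted threshold. Right, the percent of starts with a TRF2 region in both libraries by band of ATAC percentile, for all coding genes (46.0% in the top band) and for Hox genes (0 of 2, 4, 9 and 12).

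Inside the 4 clusters 1 region had a TRF2 peak in both libraries. It lay in Hoxc, at chr15:102999295-102999717, in an intron of Hoxc5 and Hoxc6, 1038 bp downstream of the annotated Hoxc6 start and thus just outside the 1-kb window. The peak of replicate 1 ran from 102999305 to 102999545 with a fold of 5.53 and 11 summit fragments, and that of replicate 2 over the whole region with a fold of 6.86 and 14 fragments. It fell inside the ATAC peak of the Hoxc6 start, with folds of 80.1, 76.7, 94.2 and 97.4, the strongest Hox peak in every library but Control replicate 1. The nearest TRF2 regions of both libraries outside the cluster lay 119 kb and 202 kb away.

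TRF2 is known for binding the telomeric repeat TTAGGG, and G-rich DNA able to fold into a G-quadruplex (G4) is another sequence linked to it. The bases shared by both peaks, on the plus strand of mm10, are therefore shown with the G4 pattern in capitals, which lies on the minus strand and so reads as C runs here. A G4 pattern was counted where 4 stretches of 3 or more G, each parted from the next by 1 to 7 bases, stood on either strand.
Hoxc TRF2 region: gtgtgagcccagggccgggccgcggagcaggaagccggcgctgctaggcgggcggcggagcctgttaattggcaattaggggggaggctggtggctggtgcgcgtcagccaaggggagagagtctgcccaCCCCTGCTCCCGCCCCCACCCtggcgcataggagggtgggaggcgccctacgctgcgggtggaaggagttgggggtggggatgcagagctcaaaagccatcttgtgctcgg
The whole region had a GC content of 65.2%, a G4 pattern and 1 match to TTAGGG on either strand. Of the 7414 TRF2 regions of both libraries genome-wide, 35.5% held a G4 pattern and 16.2% a TTAGGG, with a median GC content of 62.2%. No run of 3 TTAGGG units lay anywhere in the 4 clusters.

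G4 patterns were common in open Hox regions with and without a TRF2 peak. Of the 62 cluster regions with an ATAC peak in all 4 libraries, 41 held a G4 pattern, or 66.1%, at a median width of 1346 bp. Among the 61610 such regions genome-wide 32.2% did, at a median width of 982 bp. A TRF2 region of both libraries lay in 1 of the 62 and a TRF2 peak of either in 8. Genome-wide, 48090 of the 61610 regions had no TRF2 peak of either library. Of the 54 without a TRF2 peak of either library, 34 held a G4 pattern, or 63.0%, at a median width of 1230 bp. Genome-wide, 25.8% of such regions did, at a median width of 866 bp. Per kb of sequence, regions with a pattern numbered 0.329 in the clusters and 0.243 genome-wide, a smaller gap than that per region. At the starts, in the 300-bp window, 12 of 39 Hox genes held a G4 pattern (30.8%), Hoxa13, Hoxc9 and Hoxd13 among them, beside 20.8% of all coding genes and 28.2% of coding genes with a peak in all 4 libraries. A single TTAGGG lay at 3 of 39 Hox starts (7.69%), beside 11.4% of coding starts. The letters TGATTNAT, a common form of the joint site of Hox and Pbx proteins, were found on either strand at 3 Hox starts, those of Hoxa2, Hoxb3 and Hoxb9, or 7.69% beside 2.69% of coding starts. A match to letters is a description of sequence and no evidence of a bound protein.

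The 9 remaining cluster regions with TRF2 signal came from 1 library each. In Hoxa they included 1 near the Hoxa4 start with a fold of 7.50 and 12 fragments, 1 at the Hoxa7 start with 3.75, and 1 at the Hoxa9 start codon with 3.66. The Hoxa4 peak was the strongest of them and held a G4 pattern. In Hoxb, 1 lay 2051 bp from the Hoxb8 start, with 4.67, outside any ATAC peak. In Hoxc, 2 lay along Hoxc4, with 5.74 and 4.16, and in Hoxd, 1 lay at Hoxd13, with 5.44. Thus 5 of the 9 lay in Hoxa, and none overlapped a peak of the other replicate.

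The TALE genes encode the partners of Hox proteins. All 9 TALE genes, of the Pbx, Meis and Pknox families, had a peak at the start in all 4 libraries, with a median percentile of 88.2, beside the 88.8 of all coding genes with a peak in all 4. A TRF2 region of both libraries lay at 3 of the 9, Pbx3 and Pknox1 included, beside 22.0% of all coding starts. Pbx3 had ATAC folds of 110.7, 96.8, 116.0 and 100.1 and TRF2 folds of 9.41 and 8.33. None of the 9 was called between genotypes, with a median log2 difference of 0.02. The ParaHox genes, sisters of the Hox clusters that act in the gut, pancreas and brain, had a peak in all 4 libraries in 2 of 6 cases (Gsx1 and Gsx2), and neither was called. Of the cluster neighbours, Evx2 beside Hoxd13 had weak folds of 4.14, 4.68, 3.20 and 3.63, a log2 difference of -0.47 that was not called, and Evx1 beside Hoxa13 was listed in 3 libraries. The limb identity genes Pitx1, Tbx4 and Tbx5 were listed in 3, 1 and 3 libraries, so none of them entered the genotype comparison. Tbx5 marks the forelimb and Tbx4 and Pitx1 the hindlimb, the labelled source of these cells.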

How the data were processed

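ATAC-seq was done on 2 Control and 2 TRF2KO libraries and CUT&Tag on 2 TRF2 libraries and 1 IgG library of mouse MuSCs, grouped by their titles; the design text calls the ATAC libraries biological replicates. Reads were trimmed, aligned to mm10 with Bowtie2 and freed of duplicates with Picard. The submitters' processing notes name Bowtie2 2.5.4, MACS3 3.0.2, SEACR 1.3 and DiffBind 3.10.1 for ATAC and Bowtie2 2.4.4 and MACS3 3.0.0 for CUT&Tag. SEACR was run in stringent mode. Other peak-caller settings and a transposase shift are not given in the sources used here, so peak edges and numbers depend on unknown thresholds.

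The deposited MACS lists, called per library, hold the fold (a ratio of summit pileup to local background), the -log10 p and -log10 q given by the authors, and a rescaled score, which was not used. Depth is the background pileup solved from each peak's fold and p. SEACR signal was not compared, and SEACR and GoPeaks regions were used by position. Consensus lists are pooled by genotype.

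A shared stretch of 1 bp counted as overlap. A TRF2 region needed a peak in both TRF2 libraries. Log2 folds at coding starts with a peak in all 4 libraries were compared with limma 3.58.1 (Benjamini-Hochberg over all genes tested), and covered shares with an exact permutation test adjusted over the 4 clusters and their sum. The scripts were tested on simulated data. Sequences came from GRCm38, whose coordinates mm10 shares, and miRNAs from RefSeq. The genes, regions, marker and partner lists named in the text followed a fixed rule: all Hox genes, Terf2, the lists, every TRF2 region and every genotype-specific ATAC region inside a cluster, and the 2 strongest ATAC regions per cluster farther than 1 kb from a Hox start. Other noncoding and miRNA genes were named by annotation. The members and lists were chosen with earlier results of these data known. Alternatives were a 3-kb window, the start base, the start codon, a -log10 q of at least 5, other callers, other scalings, a replicate block and each library left out. Start codon and no centring were added after the data were seen. Results for some items are not reported here.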

Additional observations from a re-analysis of the deposited data

How the results depend on the processing

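The count of Hox genes with an ATAC peak at the start in all 4 libraries was 27 and ranged from 19 to 31 over the 10 alternatives. The count of Hox starts with a TRF2 region was 0, beside 22.0% of coding starts. It became 1 with a window of 3 kb, beside 23.3%, and 4 with a peak in either library, beside 36.7%. Without TRF2 replicate 1 it was 2, beside 30.3%, and without replicate 2 it was 3, beside 29.0%. The count of TRF2 regions inside the clusters was 1, and became 0 at a -log10 q of at least 5, 10 with a peak in either library, and 5 to 6 without 1 library. The covered share of the 4 clusters differed by -2.64 points, by -1.47 to -4.84 over the alternatives, with -4.84 by SEACR, -1.47 without Control replicate 2 and -1.57 without TRF2KO replicate 2.

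No Hox gene was called by limma under any of the 12 alternatives. The number of coding genes called was not stable. It was 28, and became 5 with quantile normalization, 7 with the logit of the percentile, 54 at a -log10 q of at least 5, 107 with a window of 3 kb, 46 at the start base, 60 at the start codon and 179 without centring. Leaving out 1 library gave 0 to 166, with 0 without Control replicate 1, 9 without Control replicate 2, 166 without TRF2KO replicate 1 and 114 without TRF2KO replicate 2, where the lone library is assumed to vary like the other group. The Hox median of -0.14 was -0.078 with quantile normalization, -0.22 in logit units, -0.11 at the start codon, -0.045 without centring and -0.16 to -0.085 without 1 library. It stayed negative in all of these.

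The replicate numbers were checked for pairing. Deviations of same-numbered libraries correlated at -0.08 over 13286 genes and at -0.48 over the 27 Hox genes. With so few libraries per genotype, these correlations cannot show whether same-numbered libraries were prepared together. With the replicate block 4 coding genes and 0 Hox genes were called, the Hox median was -0.14 and the covered share differed by -2.64 points. The cause of these changes was not tested. TRF2 peaks in the clusters rested on 5 to 14 fragments, so weaker TRF2 signal was not detectable at this depth.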
